A study of Mus musculus with 3 samples.

Results

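Ephb6 (ENSMUSG00000029869) encodes EphB6, a membrane receptor of the Eph family. The gene lies on the + strand of mouse chromosome 6, at 41605482 to 41620509 in the GRCm38 build. Its transcript carried 9 called m5C sites in germinal vesicle (GV) oocytes, 12 in metaphase II (MII) oocytes and 32 in 1-cell embryos. The order was the same with at least 50 reads (8, 11 and 21 sites) and turned with at least 100 reads (7, 8 and 5). Median coverage at the listed sites was 198, 134.5 and 61.5 reads, so the higher limit leaves out most embryo sites. Together the listed sites made up 37 distinct cytosines, of 40298 distinct sites in 8353 genes. All listed sites of the gene were taken, and the gene itself was chosen by its large number of sites in the 1-cell embryo list. That number and all comparisons with the embryo are therefore given as descriptions, with no test. The sites of the MII and GV oocytes were compared with a test.

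Eph receptors are receptor tyrosine kinases that bind ephrins, ligands that are themselves held on the surface of a neighbouring cell, and the pair guides cell adhesion and boundary formation. EphB6 is an unusual member, because its kinase domain lacks catalytic activity and it signals through other Eph receptors and Src-family kinases. The methylated base m5C (5-methylcytosine) is placed in mRNA mainly by NSUN2, at sites followed by guanines, here called Type I. NSUN6 places it at the first C of a CUCNA motif, here called Type II. Growing oocytes store maternal mRNA, which is used and then cleared after fertilization.

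RNA bisulfite sequencing converts C to a base read as T and leaves m5C as C, so the m5C level of a site is the share of its reads that stayed C. All libraries came from C57BL/6J wild-type mice, with females of 7 to 8 weeks. GV oocytes were collected 48 h after 10 IU of PMSG, a hormone that makes follicles grow. MII oocytes were taken 12 h after 5 IU of hCG, an ovulatory hormone that followed 10 IU of PMSG by 44 to 48 h. The 1-cell embryos came from mated females, 24 h after 5 IU of hCG, which followed 5 IU of PMSG by 44 to 48 h. Oocytes and embryos were pooled, and the zona pellucida was removed with 10 IU/ml of hyaluronidase. Each stage had 1 library and no replicate, so no value has a replicate check, and library batch, conversion protocol and stage cannot be told apart. The intervals below are 95% Wilson intervals for shares and order-statistic intervals for medians. Those of a level cover the counting of reads only, and reads can be copies of the same molecule. Those of a median or of a share of sites cover the number and spread of sites only, taken as independent. None covers differences between libraries.

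The lists hold called sites alone, with at least 20 reads, a level of at least 10% and at least 5 unconverted reads. A cytosine that is missing from a list can be unmethylated, below these limits or not covered. The 3 lists held 15910, 20694 and 24996 sites in 6108, 6736 and 6407 genes, in the order GV oocyte, MII oocyte and 1-cell embryo. Reads at the sites summed to 4475058, 5285011 and 2616279. Of 12 oocyte marker genes, 11 had a site in at least 1 list and Dppa3 had none. Of 10 cumulus and granulosa markers, Amh and Cyp19a1 had 1 MII site each and the others had none in any list. A gene without a site can still be expressed, and the part of these cells in the values was not tested.

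Positions are given from the first base of the longest-CDS transcript (ENSMUST00000114732.2), which has 3762 nt, 18 exons and 1095 cytosines. C469 is thus the cytosine at nt 469. The sequences below, read from the genome and spliced where an exon ends, are 8 of the 10 sites shared by stages, namely the 7 also listed in the embryo and C3142, which had the most MII reads of the others. They show what the bases after the sites look like, since 6 of them carry the same 5 letters. Each is the sense strand, 5′ to 3′, over 21 bases, and the capitals mark the listed C and the 4 bases after it.
C469: tgcctcagaaCAGGGcagtgg
C538: acgactggctCAGGGagcaga
C748: tgccacgttgCAGGGctccct
C1562: aaggcttctaCAGGGccagtt
C2650: ctgggtcgggCAGCActgctg
C2946: ccacagtcctCAGGGttcaag
C3142: cccccacctcCAGGGtgcccc
C3218: ctcattttgaCCAGCtggtag

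C469 lies in the 5′ UTR part of exon 3 (chr6:41613262-41613282), and C538 lies in the same exon just inside the coding sequence (chr6:41613331-41613351). C748 is in exon 5 (chr6:41614136-41614156) and C1562 is in exon 6 (chr6:41615597-41615617). C2650 is in exon 13 (chr6:41618181-41618201). The window of C2946 spans the junction of exons 14 and 15 (chr6:41618732-41618744 and chr6:41619231-41619238). C3142 and C3218 are both in exon 16 (chr6:41619640-41619660 and chr6:41619716-41619736). From C538 on, all these sites are coding.

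For comparison, the next sequences are from sites listed in the embryo alone. They are C634 in exon 4 (chr6:41613760-41613780), which had the highest level among these sites, C1645 in exon 7 (chr6:41615952-41615972) and C2820 in exon 14 (chr6:41618606-41618626). C1548 in exon 6 (chr6:41615583-41615603) is added as the Type II site of the transcript, chosen after its values were seen.
C634: ctggataccaCAGGAgagacc
C1645: gtgcaaggctCGGCActcatg
C2820: ggccatgcagCGGGGtgtggc
C1548: ttgcccatgtCTCCAaggctt

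The 37 sites fell into clear stage patterns. 6 were listed at every stage (C469, C538, C748, C1562, C2946 and C3218). C1841, C2547 and C3142 were listed in both oocytes and not in the embryo. C2650 was shared by the MII oocyte and the embryo, and C1643 and C1872 stood in the MII list alone. The other 25 were listed in the embryo alone, and no site was listed in the GV oocyte alone. All 9 GV sites were therefore also MII sites (100%, interval 70.1 to 100), against 81.4% of the sites of all genes. Of the 12 MII sites, 7 were also listed in the embryo (58.3%, 32.0 to 80.7), against 38.7% over all genes. Of the 32 embryo sites, 25 were listed in the embryo alone (78.1%, 61.3 to 89.0), against 66.6% over all genes. Each of these intervals held the share of all genes.

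**Figure D1:**
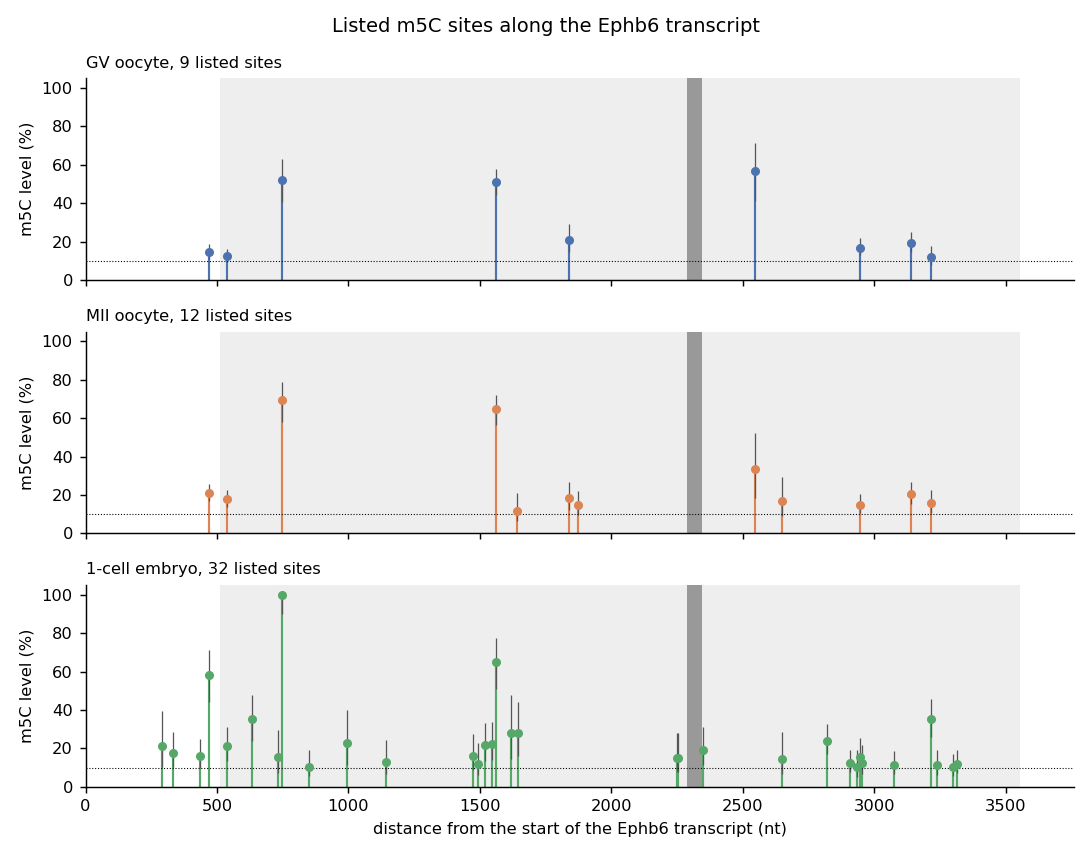
Listed m5C sites of the Ephb6 transcript, with the m5C level in percent (y axis) against the distance from the transcript start in nt (x axis), with 1 panel per stage. Bars are 95% Wilson intervals, light grey is the coding sequence, dark grey the hydrophobic stretch of the membrane segment, and the dotted line the 10% limit of the lists. The 32 embryo sites are mostly low and fill stretches where the 9 and 12 oocyte sites are sparse, while 748 nt and 1562 nt stand above 50% at all 3 stages.

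C748 and C1562 were the most methylated sites found at every stage. The level of C748 was 52.1% of 73 GV reads, 69.3% of 75 MII reads and 100% of 34 embryo reads (interval 89.9 to 100). That of C1562 was 51.01% of 198 reads, 64.5% of 141 and 65.2% of 46. C748 was highest in the embryo, with an interval above those of both oocytes, whereas the MII and embryo values of C1562 lay next to each other. A level of 100% was not particular to C748. Over all genes it was found at 551 of 24996 embryo sites, against 2 of 15910 GV and 8 of 20694 MII sites.

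C469 and C538, which flank the start of the coding sequence, were low in oocytes. C469 had 14.4% of 340 GV reads, 20.95% of 315 MII reads and 58.3% of 48 embryo reads. C538 had 12.5% of 361 reads, 17.8% of 314 and 20.99% of 81. C469 was thus far higher in the embryo than in both oocytes, while the embryo interval of C538 (13.5 to 31.1) overlapped that of both.

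The shared sites after the membrane segment, in the part that encodes the inactive kinase, were unlike each other. C3218 had 12.0% of 159 GV reads, 16.0% of 144 MII reads and 35.3% of 85 embryo reads. C2946 lay between 14.8% and 16.9% at all stages, with 278, 209 and 72 reads in the order of the stages. C2650 had 17.0% of 53 reads in the MII oocyte and 14.6% of 41 in the embryo. The embryo interval of C3218 (25.97 to 45.9) lay above those of the oocytes, and all intervals of C2946 overlapped.

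Of the sites not listed in the embryo, C2547 was the most methylated, at 56.8% of 37 reads in the GV oocyte and 33.3% of 27 in the MII oocyte. C1841 had 20.9% of 115 reads and 18.4% of 114, and C3142 had 19.2% of 203 and 20.5% of 200. C1643 had 11.8% of 76 reads and C1872 14.8% of 128 in the MII oocyte. Levels in both oocytes were close to each other at C1841 and C3142, and apart in value at C2547, which had the fewest reads. C1643 and C1872 had no listed GV level to compare. Coverage in the embryo at these 5 cytosines is not in the lists. The nearest embryo site to C3142 was 68 nt away and had 107 reads, and that to C2547 was 103 nt away and had 41.

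**Figure D2:**
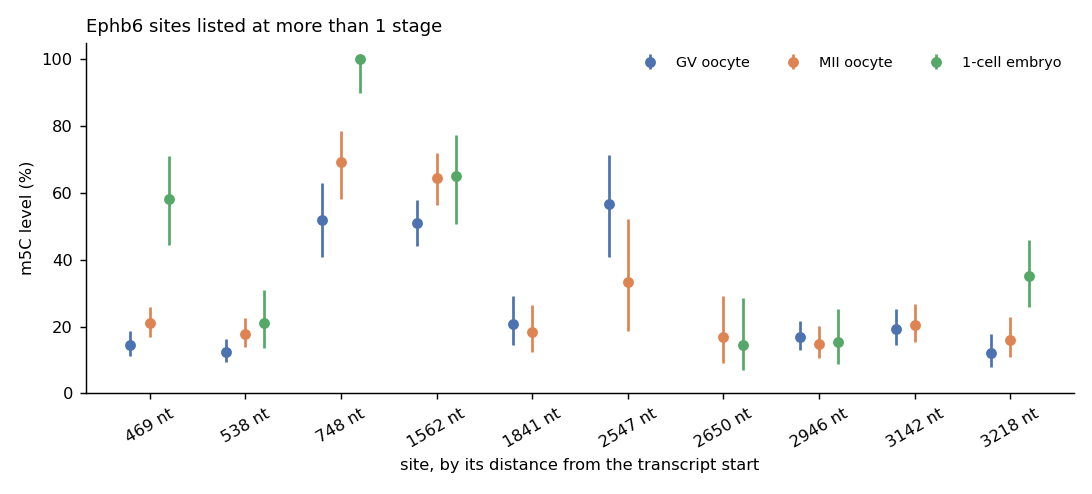
Level in percent (y axis) of the 10 Ephb6 sites listed at more than 1 stage, by distance from the transcript start (x axis), in GV oocytes (blue), MII oocytes (orange) and 1-cell embryos (green), with 95% Wilson intervals. Embryo levels at 469, 748 and 3218 nt lie above the oocyte intervals, while the points at 2946 nt coincide near 15%.

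The reads of the GV and MII libraries could be compared with a test at the 9 sites that both oocyte lists hold. Fisher's exact test (two-sided, p-values adjusted by Benjamini-Hochberg over all 12954 shared sites) called 0 of the 9 Ephb6 sites higher and 0 lower in the MII oocyte. Over all genes, 19.6% of shared sites were called higher and 0.965% lower. In value, 6 of the 9 were higher in the MII oocyte and 3 lower, with a median change of 4.02 percentage points, against 4.87 over all shared sites. This test compares the reads of these libraries, not the stages.

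The largest positive differences were at sites with high levels. C748 was 17.3 points higher in the MII oocyte (interval of the difference 1.56 to 31.9, exact adjusted p = 0.146) and C1562 was 13.5 points higher (2.84 to 23.7, exact adjusted p = 0.0651). C469 was 6.54 points higher (0.699 to 12.4, exact adjusted p = 0.113). These 3 sites had an unadjusted p under 0.05, 33.3% of the 9 sites against 30.8% of all shared sites. C2547 was lower by 23.4 points in value, with an interval from -44.1 to 1.19 and an exact adjusted p of 0.225. When only shared sites of at least 100 reads in both oocytes were tested, C1562 was called higher (exact adjusted p = 0.0442).

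Against the embryo, the same sites are given side by side. The embryo level was above the GV level at 5 of the 6 shared sites, with a median difference of 18.8 points, and above the MII level at 6 of 7, with a median of 3.15. Over all genes the embryo was higher at 90.4% of sites shared with GV (median 19.2 points) and 83.8% of those shared with MII (12.7 points). Differences from the MII oocyte ran from 37.4 points at C469 to -2.35 points at C2650. The difference was thus uneven along the transcript, being above 19 points at C469, C748 and C3218 and under 4 points at C538, C1562, C2650 and C2946. The value was higher at each later stage at 5 of the 6 every-stage sites (83.3%), and at 67.4% of such sites over all genes. Coverage in the embryo was 0.345 times that in the MII oocyte (median of 7 sites), close to 0.318 over all genes.

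The sites listed in the embryo alone were many and mostly weak. Their median level was 15.4% (12.3 to 21.4), and 17 of the 25 were under 20%. The 7 embryo sites shared with an oocyte had a median of 35.3%. Over all genes the medians were 19.4% and 39.1%, so the same order was seen there. The highest of the 25 were C634, at 35.1% of 57 reads, C1617, at 28.0% of 25, and C1645, at 27.8% of 36. The best covered were C2907, at 12.3% of 122 reads, C2820, at 23.9% of 113, and C3315, at 11.7% of 111. The lowest levels were 10.1% of 109 reads at C3299, 10.3% of 78 at C2933 and 10.5% of 76 at C849. C2820 was thus the only embryo-alone site that combined over 100 reads with a level above 20%.

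**Figure D3:**
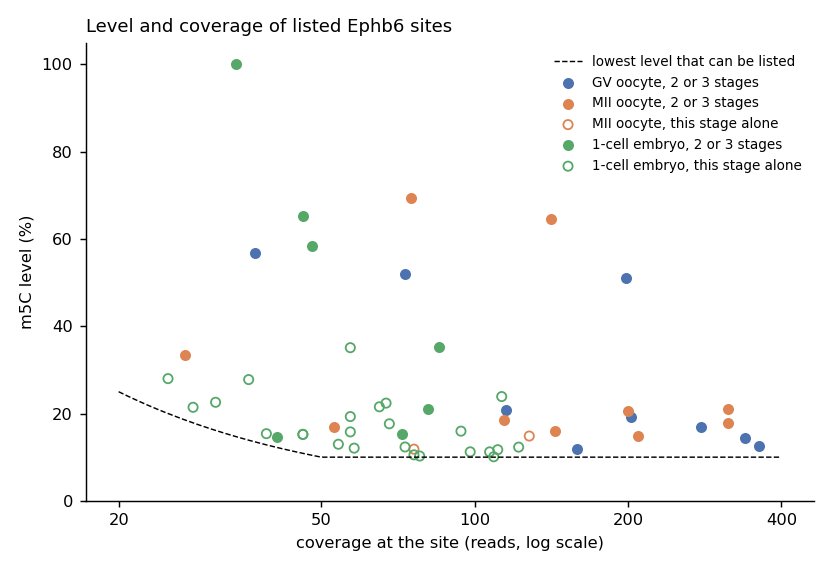
Level in percent (y axis) against coverage in reads (x axis, log scale) for each listed Ephb6 site at each stage. Filled points are sites listed at 2 or 3 stages, open points those of 1 stage, and the dashed line is the lowest level that can be listed at a coverage. The open embryo points lie between 10.1% and 35.1%, many of them near the line, and none of the 25 reaches 50%.

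Because 5 unconverted reads are needed, shallow sites can be listed only at higher levels. In the embryo 11 of the 32 sites had under 50 reads. Across these 32 sites, which share a library, Spearman's rho between level and coverage was -0.496. With at least 100 reads, 5 embryo sites remained, each of them embryo-alone, against 7 GV and 8 MII sites, so that the embryo then had the fewest. With at least 50 reads the counts were 8 GV, 11 MII and 21 embryo sites. The embryo list gave Ephb6 a median level of 15.9% (13.0 to 22.4) at a median coverage of 61.5 reads, whereas all embryo sites had 23.8% at 58. In the oocytes the median levels were 19.2% and 18.1%, at 198 and 134.5 reads, and the medians over all sites were 19.5% and 19.8%. In value the embryo median of Ephb6 thus lay below the median of its list, and its oocyte medians were close to theirs. The sites share a library and some share reads, so the interval of the embryo median does not test that difference.

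The unconverted background of Ephb6, recovered from the deposited p-values, was 0.417% for GV, 0.556% for MII and 0.833% for the embryo. Of all genes for which it could be recovered, 78.9%, 76.9% and 91.6% had a lower background. The lowest listed level of Ephb6 was 28.7, 21.3 and 12.1 times its background in the order of the stages. The embryo background of this gene was thus higher than in the oocytes and stood high among genes, and its part in the number of listed sites was not tested. The study's methods do not state whether reads of listed sites count in a gene's conversion rate. If they do, this background is not independent of the number of sites.

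Some embryo-alone sites lay close to oocyte sites. Of the 25, 10 lay within 50 nt of a site listed in an oocyte, as did 279 of the 1058 other cytosines of the transcript (26.4%). At 7 of those 10 the oocyte site had at least 100 reads. C1645 lay 2 nt from C1643, a site of the MII list alone, and C2953 lay 7 nt from C2946. C1548 was 14 nt upstream of C1562, where the GV oocyte had 198 reads. The oocytes were thus sequenced around several of these cytosines, which were not listed there. The adjacent C2251 and C2252 each had 7 of 46 reads unconverted. These close sites share reads and are not independent.

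The sites were spread over most of the mRNA. They ran from nt 291 to nt 3315, and the median gap between embryo sites was 60 nt (shortest 1, longest 606). The 5′ UTR held 4 sites among 150 cytosines (2.67%) and the coding sequence 33 among 881 (3.75%, 2.68 to 5.21). The 3′ UTR held 0 among 64, with a Wilson interval that reaches 5.66%. Exons 5, 6 and 7 held 5 distinct sites each, and exons 2, 8, 9, 11, 12 and 18, with 249 cytosines, held none. Codon positions 1, 2 and 3 held 11 sites each, among 305, 255 and 321 cytosines.

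The coding sequence was divided at its most hydrophobic stretch of 19 residues (residues 593 to 611 of 1014), where the membrane segment of Eph receptors lies. Of the distinct coding sites 19 lay before it, in the ephrin-binding extracellular part, and 14 after it, in the part with the inactive kinase. In the embryo the 16 sites before it had a median level of 21.3% at 50 reads, and the 12 after it 12.3% at 91.5 reads. Coverage was thus higher where the level was lower, and its part in that difference was not tested.

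Oocyte sites of Ephb6 were richer in guanine after the site than its embryo-alone sites, as a description. At positions +1 to +4 the mean number of G was 2.78 (SD 0.833, n = 9 sites) for GV, 2.50 (SD 0.905, n = 12) for MII and 1.84 (SD 1.11, n = 32) for embryo sites. The 1058 other cytosines of the transcript had 1.04 (SD 0.854), and the sites of all genes had 2.10, 2.10 and 1.91. In the embryo the 25 embryo-alone sites had 1.68 and the 7 shared sites 2.43. Position +2 was G at 83.3% of MII sites, 40.0% of embryo-alone sites and 32.5% of the other cytosines. Embryo sites at a level of at least 20% had 2.31 G, and those under 20% had 1.53.

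**Figure D4:**
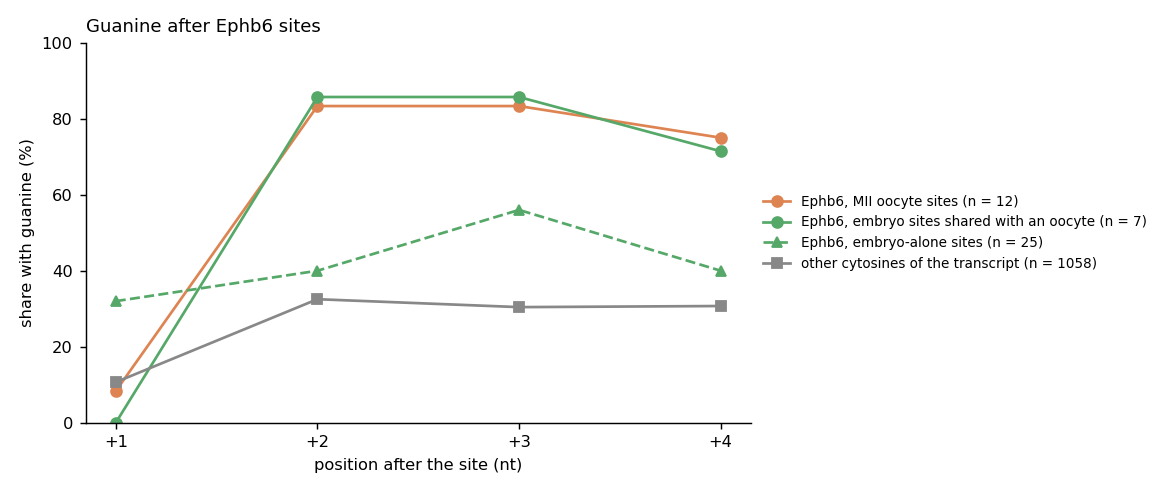
Share of cytosines with guanine (y axis, percent) at positions +1 to +4 after the site (x axis), for Ephb6 sites of the MII oocyte, embryo sites shared with an oocyte, embryo-alone sites and all other cytosines of the transcript. At +2 the MII sites stand at 83.3%, the embryo-alone sites at 40.0% and the other cytosines at 32.5%.

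The letters CAGGG, counted from the site on and on the sense strand, were looked for after the sequences had been seen. They began at 11 of the 1095 cytosines of the transcript (1.01%), and 6 of these 11 were listed sites. All 6 were oocyte sites (6 of 12), among them 5 of the 6 found at every stage, with C3218 as the exception. Among the 25 embryo-alone sites 0 carried them. Over all genes, CAGGG stood at 8.41% of GV, 8.18% of MII and 5.36% of embryo sites, and at 4.08% of embryo-alone sites. The other 5 CAGGG cytosines of the transcript were C126, C1144, C1327, C1772 and C2608, of which C126 is in the 5′ UTR and the others are coding. A match is not a site, and the same letters thus occurred at listed and unlisted cytosines.

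C1548 was the Type II site, with 22.4% of 67 reads in the embryo. It was listed in the embryo alone, and the transcript held 13 CUCNA motifs. Type II sites made up 0 of 9, 0 of 12 and 1 of 32 Ephb6 sites, and 5.90%, 5.02% and 3.45% of all sites. In predicted folds reaching 50 nt to each side, 62.2% of the 37 sites (46.1 to 75.9) and 62.8% of the other cytosines were paired. Over all 37 sites the share of paired bases was thus about the same as elsewhere. It was 75.0% of the 12 oocyte sites (46.8 to 91.1) and 56.25% of the 32 embryo sites (39.3 to 71.8), sets that overlap. Both intervals held the share of the other cytosines.

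Among 14 Eph receptor genes, Ephb6 carried most of the sites. It had 9 of 15, 12 of 22 and 32 of 46 receptor sites in the order of the stages. Ephb4, the receptor of ephrin-B2, had 6, 8 and 9 sites. Epha1 and Epha10 had 1 MII site each, and Epha4 and Epha6 had 3 and 2 embryo sites. The other 8 receptors had no site at any stage. Ephb4 thus had fewer sites than Ephb6 at each stage. The median embryo level was 18.2% at 50 reads in Ephb4.

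Of the 8 ephrin genes 5 had sites. Efnb2, whose protein is a ligand of EphB receptors, had 9, 10 and 16 sites, with median levels of 36.7%, 43.8% and 27.6%. Efnb1, another such ligand, had 7, 7 and 1. Efna4 had 2, 2 and 4, Efna5 had 1, 3 and 2, and Efna1 had 1 embryo site. Efnb1 thus went the other way from Ephb6 in its number of sites, at a median coverage of 42, 32 and 29 reads.

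**Figure D5:**
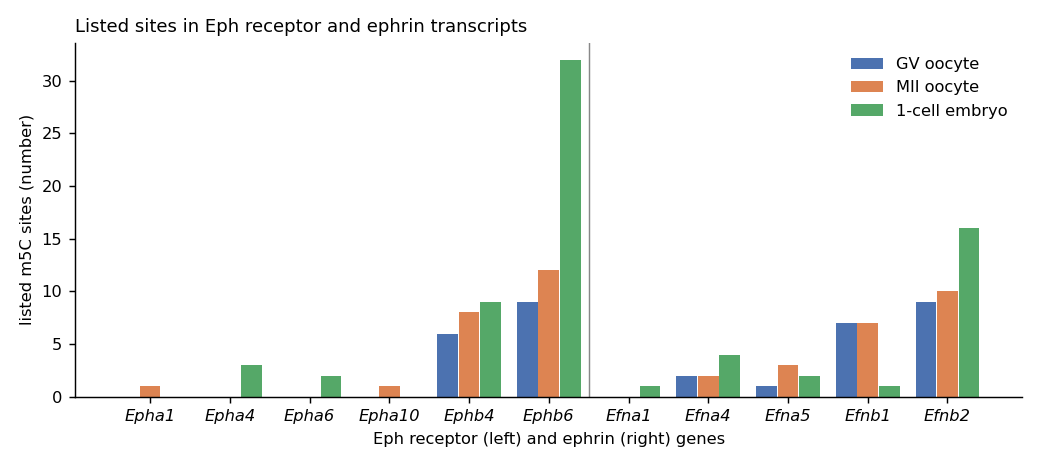
Number of listed m5C sites (y axis) in each Eph receptor and ephrin gene with at least 1 site (x axis), at each of the 3 stages. Ephb6 in the embryo, with 32 sites, is the tallest bar, followed by Efnb2 with 16, and Efnb1 has 7 sites in each oocyte and 1 in the embryo.

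At sites shared by the oocyte lists, 0 of 14 receptor sites were called higher or lower in the MII oocyte. Of these 14, 9 were the Ephb6 sites given above, and the others were in Ephb4. Of 16 ephrin sites 2 were called higher and 0 lower, both in Efnb2. They went from 36.7% to 49.1% (12.4 points, 3.99 to 20.6, exact adjusted p = 0.0283) and from 38.7% to 48.0% (9.34 points, 2.74 to 15.8, exact adjusted p = 0.0337). Of 36 sites in 20 signalling partners 5 were called higher and 0 lower, in Tiam1, which activates the GTPase Rac, and in the adaptor Crk. The shares of the 3 lists lay below the 19.6% called higher over all genes. The partners, such as the kinases Fyn and Abl1, had 41, 57 and 82 sites in 15 genes, and Abl1 had 7, 6 and 15. Of the writers and binding proteins of m5C, Nsun2 had 1, 0 and 1 sites and Alyref 0, 0 and 5, while Nsun6 and Ybx1 had none.

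In the embryo list Ephb6 ranked 3rd of 6407 genes by number of sites, behind Gse1 with 39 and Lama5 with 38, and just before Pdzd2 with 31. In the GV list it shared the 108th place with the other genes of 9 sites, 59 genes in all. In the MII list it shared the 80th place among 44 genes of 12 sites. The embryo count was 20 sites above the MII count, the largest such difference of all genes. Since the gene was chosen by its embryo count, a high embryo rank and a large difference follow in part from that choice. Gse1 and Lama5 had higher embryo median levels, 25.0% and 35.6%.

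The genes with the most similar numbers of sites, by the distance of log2(1 + sites) over the 3 lists, were Insm1 (0.259), Sec16a (0.274), Socs7 (0.362), Espl1 (0.401) and Pdzd2 (0.505). Insm1 had 10, 11 and 28 sites and Pdzd2 had 7, 16 and 31. Their median embryo levels ran from 17.8% in Socs7 to 25.9% in Espl1, all above the 15.9% of Ephb6.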

How the data were processed

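RNA bisulfite libraries of GV oocytes, MII oocytes and 1-cell embryos, 1 per stage, were analysed. Polyadenylated RNA is named in the labels, and ribosomal depletion in the study's methods. The methods also give another hCG dose for MII oocytes than the labels used here. The authors trimmed reads with cutadapt 1.13 and Trimmomatic 0.36 and aligned them to the converted genome (GRCm38) with HISAT2 and to the converted transcriptome with Bowtie2 2.2.9. They left out reads with over 3 unconverted C. As deposited, coverage is a raw count of reads with C or T. The deposited m5C level is a fraction, printed here in percent. The deposited p-value comes from a binomial test (upper tail) on each gene's own conversion rate, and the background was recovered from it.

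Every row named Ephb6 was taken. The gene, the named sites and the gene lists were chosen with earlier results of these data known. Named sites were those at 2 or more stages and the embryo-alone sites with the 3 highest levels, 3 lowest levels and 3 highest coverages. MII-alone sites, under the same rule, were both given. Printed sequences were the 8 shared sites with most embryo reads, the last by MII reads, and the 3 embryo-alone sites of highest level at 30 reads or more. Positions, exons and sequences came from GRCm38 and GENCODE M21, and symbols were matched by identifier for 6100 of 6108, 6729 of 6736 and 6396 of 6407 genes. Unconverted reads were level times coverage. Windows reaching 50 nt to each side were folded with ViennaRNA 2.7.2 at 37 °C. Fisher's exact test with Benjamini-Hochberg adjustment at 0.05 was tested on simulated data, and Newcombe intervals were used for differences. Python 3.11.15 and scipy 1.17.1 were used. Alternatives changed the limits on coverage, level, unconverted reads and p-value, the motif and G windows, the adjustment, and divided reads by 5. The embryo list may be from another sequencing run than the one in the supplement of the study, which was not used.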

Additional observations from a re-analysis of the deposited data

How the results depend on the processing

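Of 124 alternative values, 104 kept their call, stayed within 1.5 times the count or lay within the 95% interval of the value they replaced, which is wide for medians of few sites. The number of embryo sites fell from 32 to 21 with at least 50 reads, 5 with at least 100 reads, 13 at a level of at least 20% and 19 with at least 10 unconverted reads. With at least 100 reads the GV oocyte kept 7 sites and the MII oocyte 8, so the order of the stages by number of sites turned. Those listed in the embryo alone fell from 25 to 5, 10 and 13 under the last 3 of these limits. At a level of at least 20% the GV oocyte kept 4 sites and the MII oocyte 5. The embryo median level moved to 11.7% with at least 100 reads and 27.8% at a level of at least 20%, and the Type II share to 0 with at least 100 reads. At a level of at least 20% the median became 51.5% in the GV oocyte and 33.3% in the MII oocyte, since lower sites are left out. That of the sites shared by all stages was then 51.5%, 66.9% and 82.6% (main values 15.7%, 19.4% and 46.8%). With at least 50 reads it was 20.99% in the embryo. At a level of at least 20% only C748 and C1562 were left, and with at least 50 reads only C538, C2946 and C3218. Mean G moved to 1.4 in the embryo with at least 100 reads, and at a level of at least 20% to 2.31 in the embryo and 3.2 in the MII oocyte. Over positions +1 to +3 it was 1.89, 1.75 and 1.38 in the order of the stages, which counts fewer positions. With at least 100 reads in both oocytes, 1 site was called higher in the MII oocyte, C1562, with an exact adjusted p of 0.0442. No paired analysis was possible because each stage had 1 library. For the same reason no replicate could be left out. The embryo coverage limits which low levels could be listed there.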
